A study of Drosophila melanogaster with 3 samples.

Results

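The 10 genes described here control the cell cycle of Drosophila melanogaster. They were chosen by name from the annotation, 10 of its 13945 protein-coding genes, with earlier results of these data known. They are CycA, CycB, CycB3, CycD, CycE, Cdk1, Cdk2, stg, fzy and E2f1. The measurement was chromatin immunoprecipitation with sequencing (ChIP-seq), which recovers the DNA bound by a protein. The protein was Hr51, an NR2E-group nuclear receptor known for its part in neuron development, with GFP fused to its C-terminus. It was expressed by a transgenic fly line of strain Dhr51-GFP, which carries an insertion targeting Hr51. The material was whole embryos aged 0 to 24 h, male and female together, so a peak cannot be assigned to a cell type. There were 3 biological replicates of this 1 group, all with the same transgene. The labels name an anti-GFP antibody in one place and Hr51 as the antibody in another. The labels do not say how many copies of Hr51 the line carries.

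The values are the authors' peak lists on the dm6 assembly. The optimal list after the irreproducible discovery rate (IDR) filter held 3496 peaks. A pooled list and a list for each replicate held 30000 peaks each, background included. These 3496 peaks were the strongest of the pooled list, so one rank serves both. The signal of a peak is the authors' own value. It has no common scale between lists, so replicates were compared by rank within a list. The 3496 highest peaks of each replicate are called its top list. The lists give no read counts, and the depth of each replicate is unknown. The authors' peak calling used 1 further file that is not described, which may be a control, and no control library is among the samples. With 1 group, no test between groups was run, and the counts below are descriptions.

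The cell cycle is driven by cyclin-dependent kinases (Cdks), which act only when bound to a cyclin. In flies Cyclin E with Cdk2 drives entry into DNA replication, and Cdk1 with cyclins A, B and B3 drives mitosis. Cyclin D with its kinase promotes growth and division. String (stg) is a Cdc25 phosphatase that activates Cdk1, and its transcription times the mitoses of the cellular embryo. Fizzy (fzy), the fly Cdc20, turns on the ubiquitin ligase APC/C, which has mitotic cyclins destroyed. E2f1 is the transcription factor that turns on genes for DNA replication. The earliest embryonic divisions run on maternal products, and later divisions depend increasingly on transcription by the embryo.

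Sequences under or beside the IDR summits of CycA, Cdk1, Cdk2 and E2f1 are printed first, to show the places of these peaks. Elements marked in them are string matches and not part of the peak lists, and their shares over all IDR summits are given below. Each sequence is given 5′ to 3′ on the strand of the named gene, from Release 6 of the RefSeq genome, and holds no annotated exon. Except for CycA they span the summit. For CycA, whose summit was in the first exon, they are the 120 bases upstream of the transcription start site (TSS). The matches marked there lie 119 to 139 bp from the summit. Capitals mark exact matches on either strand to the DREF/BEAF sequence TATCGATA or its core CGATA, to TTTGAA (the element known as CHR), and to the CTCF core AGGTGGCGC. The full DREF/BEAF sequence holds its core on both strands. The places are chr3L:11833579-11833698 for CycA and chr3R:20735511-20735622 for Cdk2. For Cdk1 the place is chr2L:10386401-10386551, beside its own TSS. For E2f1 they are chr3R:21641716-21641866 and chr3R:21627924-21628074 in introns, and chr3R:21619332-21619482 past its 3′ end, near the TSS of InR.
CycA upstream of TSS: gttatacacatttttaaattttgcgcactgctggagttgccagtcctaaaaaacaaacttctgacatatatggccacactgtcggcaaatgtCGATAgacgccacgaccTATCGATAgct
Cdk2 own TSS: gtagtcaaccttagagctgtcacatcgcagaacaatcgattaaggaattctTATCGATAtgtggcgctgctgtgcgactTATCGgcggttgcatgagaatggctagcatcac
Cdk1 own TSS: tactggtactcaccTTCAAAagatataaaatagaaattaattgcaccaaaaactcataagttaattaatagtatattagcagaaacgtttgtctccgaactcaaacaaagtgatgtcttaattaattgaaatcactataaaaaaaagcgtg
E2f1 first intron peak: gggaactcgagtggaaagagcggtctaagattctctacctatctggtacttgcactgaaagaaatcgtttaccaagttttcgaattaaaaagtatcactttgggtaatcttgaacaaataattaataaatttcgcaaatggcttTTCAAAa
E2f1 second intron peak: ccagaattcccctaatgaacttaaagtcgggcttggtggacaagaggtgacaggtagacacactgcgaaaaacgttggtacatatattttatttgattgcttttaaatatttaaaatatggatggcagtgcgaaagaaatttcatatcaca
E2f1, near TSS of InR: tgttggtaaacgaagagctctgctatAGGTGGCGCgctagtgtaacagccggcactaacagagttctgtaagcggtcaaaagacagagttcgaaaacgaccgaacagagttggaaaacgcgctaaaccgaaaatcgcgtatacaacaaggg

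IDR peaks lay at the TSSs of CycA, Cdk1 and Cdk2, in introns of E2f1 and past the 3′ end of CycB, and CycB3, CycD, CycE, stg and fzy had none. Of the 10 genes, 3 had an IDR summit within 500 bp of an annotated TSS of their own, against 19.1% of all protein-coding genes. With the gene and 2 kb to either side as the window, 5 of 10 had an IDR summit, against 32.1%, and 1 of 10 had an intron summit over 500 bp from its TSSs, against 4.93%. These windows held 9 IDR summits. Of these, 3 were at an own TSS, 3 within 500 bp of the TSS of another gene, 2 in an intron and 1 in the flank. In an exon farther from a TSS there were 0. This split was not counted over the windows of all genes. The 3 genes with a TSS peak had it in the weaker part of the IDR list, at ranks 2039 to 3370, so 0 of 10 had one in the stronger 1748 peaks. Up to rank 1750, 11% of all protein-coding genes had one, and with 10 genes a count of 0 cannot be told from that share.

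**Figure D1:**
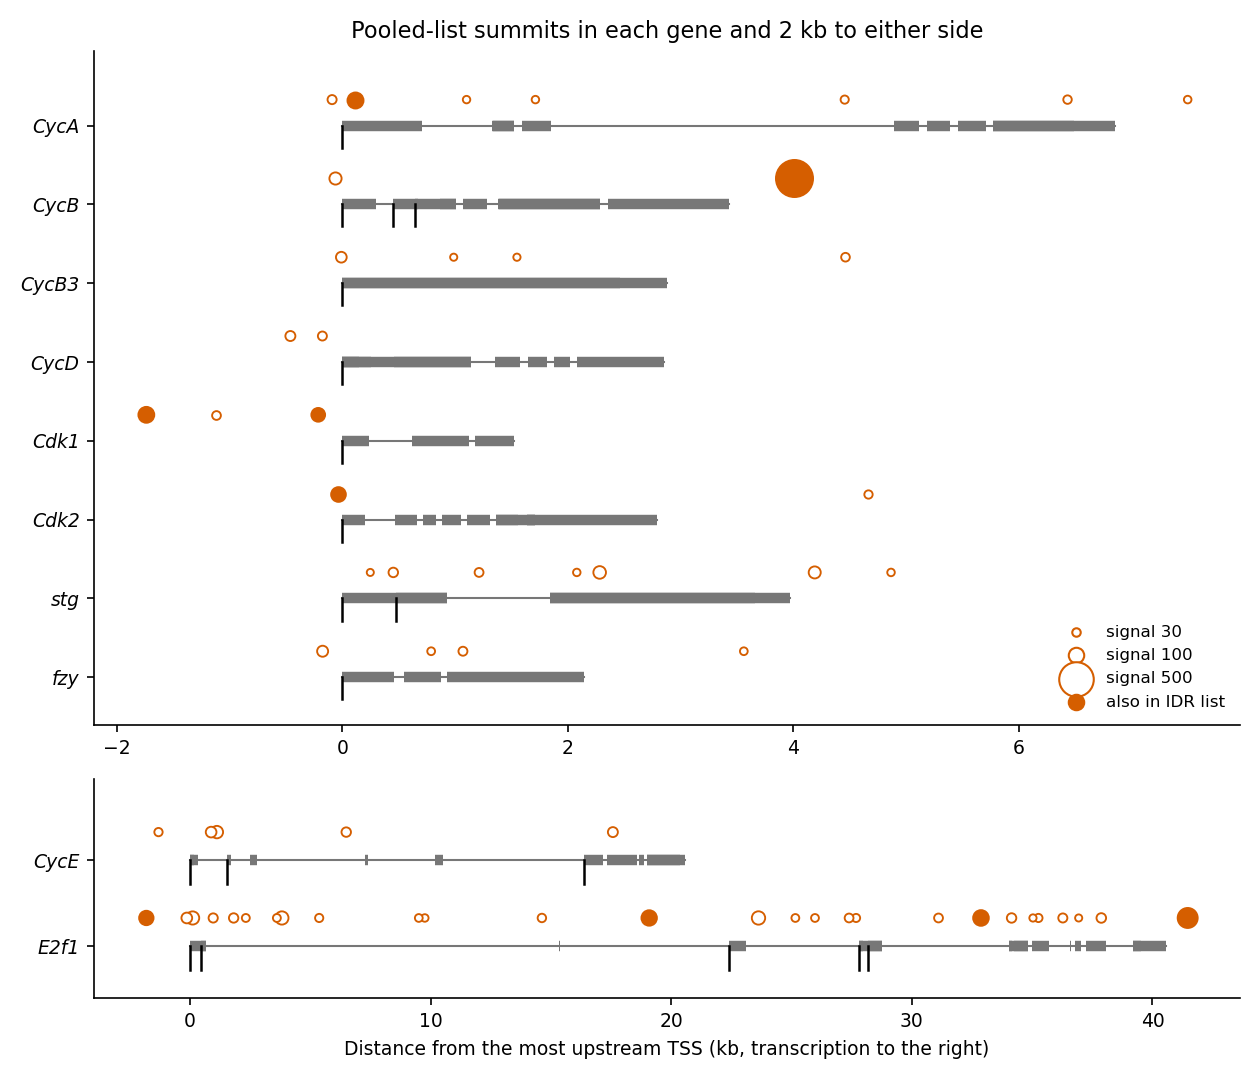
Summits of the pooled list (circles, area proportional to the authors' signal) along each gene, with distance from the most upstream TSS in kb on the x axis, exons as thick bars and TSSs as ticks below them. Filled circles are the 9 summits also in the IDR list. The largest lies past the 3′ end of CycB, and 4 lie in the window of E2f1.

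Among the mitotic cyclins, CycA had a peak at its start, CycB a much stronger one past its end, and CycB3 neither. CycA (FBgn0000404, 3L 11826719 to 11833578, minus strand) had an IDR summit 115 bp downstream of its TSS, in the first exon but outside the coding sequence, with a pooled signal of 108 and rank 2039. The strongest summit within 150 bp of it ranked 2727, 1211 and 7996 in replicates 1, 2 and 3. Replicates 1 and 2 thus held it in their top lists and replicate 3 did not. No other annotated gene had a TSS within 500 bp of it.

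The strongest peak of all the windows was at CycB (FBgn0000405, 2R 22803521 to 22806948, minus strand). Its summit, at 22802937, lay 584 bp past the 3′ end of the gene and 3366 bp from the nearest CycB TSS. The pooled signal was 577, rank 55, and the replicates gave signals of 168, 208 and 205 at ranks 85, 51 and 33. Replicates 2 and 3 placed the summit within 1 bp of the pooled one and replicate 1 within 33 bp. The peak was in no annotated gene, between CycB and blw, a gene for an ATP synthase subunit, which is transcribed toward CycB. The nearest TSS of another protein-coding gene, that of blw, was 3838 bp away. At its own TSS CycB had only a pooled summit, 68 bp upstream, with a signal of 62.2 and rank 4808. In the replicates the strongest summit within 500 bp of a CycB TSS ranked 3286, 9798 and 5728, so it was in the top list of replicate 1 alone.

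CycB3 (FBgn0015625, 3R 24867934 to 24870816, minus strand) had 0 IDR summits and 4 pooled ones. The strongest, 9 bp upstream of the TSS, had rank 7084. The strongest TSS summits of the replicates ranked 9971, 4965 and 16167, all outside the top lists. That of replicate 2 lay 149 bp downstream of the TSS, and replicate 2 had no summit within 150 bp of the pooled one.

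The 2 cyclins of the growth phase before replication had no IDR peak, and each had a TSS summit in the top list of a single replicate. CycD (FBgn0010315, X 15906822 to 15909676, minus strand) had pooled summits 177 and 461 bp upstream of its TSS, the latter the stronger at rank 9003. Its strongest TSS summit ranked 3177 in replicate 1, 6509 in replicate 2 and 20196 in replicate 3. These were not one peak, since replicate 1 had it 177 bp upstream, replicate 2 445 bp upstream and replicate 3 23 bp downstream. CycE (FBgn0010382, 2L 15727581 to 15748150, minus strand) has 3 annotated TSSs. Its strongest pooled TSS summit lay 431 bp upstream of the middle one, inside the longest transcripts, with a signal of 64.7 and rank 4530. The strongest TSS summits of the replicates ranked 7345, 25058 and 1757 and were not one peak. Replicates 1 and 3 had theirs 353 and 447 bp upstream of that TSS, and replicate 2 had its own 148 bp downstream. A separate pooled summit 669 bp upstream, past the TSS limit, ranked 4366 in replicate 2 and 5557 in replicate 3. Over its 24.6 kb window CycE had 5 pooled summits, 2 of them in introns away from a TSS.

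Both kinase genes had an IDR peak at the TSS, of low rank. Cdk1 (FBgn0004106, 2L 10384739 to 10386262, minus strand) had a summit 214 bp upstream of its TSS, with a signal of 79.4 and rank 3370 of 3496. Within 150 bp of it the replicates had summits at ranks 2121, 3517 and 4604, that of replicate 2 just outside the top list. The summit of replicate 3 was 148 bp away, 66 bp upstream of the TSS. The pooled summit was 186 bp from the TSS of mRpS7, a mitochondrial ribosomal protein gene, so it cannot be assigned to either gene by position. A second IDR summit of the Cdk1 window, 1739 bp upstream, was 104 bp from the TSS of da, which encodes a bHLH transcription factor. It had a signal of 106 and rank 2096, and replicate ranks of 3246, 955 and 6765. Cdk2 (FBgn0004107, 3R 20735623 to 20738414, plus strand) had its summit 37 bp upstream of the TSS, with a signal of 91.2 and rank 2706. Its replicate ranks were 3050, 5285 and 3676, inside the top list in replicate 1 alone. The microRNA gene mir-995 has its start within 500 bp of this summit too.

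The phosphatase gene stg and the APC/C activator gene fzy had weaker pooled peaks only. The strongest of the 7 pooled summits in the window of stg (FBgn0003525, 3R 29251826 to 29255800, minus strand) was in its coding sequence, 1808 bp downstream of the nearest TSS, with a signal of 66.6 and rank 4331. It was found in each replicate, at ranks 5935, 8399 and 5850. At a TSS of stg the best pooled rank was 10822, the lowest of the 10 genes, and the replicates gave 17831, 20491 and 8528 at different places, 494, 40 and 147 bp upstream of a TSS. The window covers 2 kb on either side and not the more distant sequence around stg. The gene fzy (FBgn0001086, 2L 16310956 to 16313097, plus strand) had a pooled summit 175 bp upstream of its TSS at rank 6535, with replicate ranks of 5636, 10193 and 11558. The gene cni, which encodes a protein of vesicle transport, has a TSS 55 bp from the same summit, so position does not assign it to either gene.

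E2f1 (FBgn0011766, 3R 21620304 to 21660871, minus strand) is the longest of the 10 genes, with 5 annotated TSSs, and its window of 44.6 kb held 4 of the 9 IDR summits. It was the gene with intron IDR peaks, 2 in number. The first lay 19080 bp downstream of the most upstream TSS and 3297 bp from the nearest one, with a signal of 100 and rank 2311. Its replicate ranks were 4157, 8040 and 929. The second, 32872 bp downstream, had a signal of 103 and rank 2197, and ranked 2280 in replicate 1 and 1534 in replicate 3. Replicate 2 had no summit within 150 bp of it in its whole list of 30000. Both intron peaks were thus in the top list of replicate 3 and outside that of replicate 2.

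The other IDR summits in the E2f1 window lay at the TSSs of its neighbours. The stronger was 897 bp past the 3′ end of E2f1 and 86 bp from the TSS of InR, the insulin receptor gene. It had a signal of 168 and rank 899, and its replicate ranks were 789, 1108 and 1203. With the CycB peak it was 1 of 2 IDR summits of the windows that all 3 top lists held. Its match in replicate 3 lay 121 bp away, against 1 bp in replicates 1 and 2. The weaker, at rank 2908, was 279 bp from the TSS of Archease, a gene for an RNA ligase cofactor, and inside that gene, with replicate ranks of 3620, 4804 and 2510.

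At its own TSSs E2f1 had no IDR summit. Its best pooled TSS summit, 102 bp downstream of a TSS, had a signal of 72.8 and rank 3801, past the end of the IDR list. The replicates gave ranks of 3793, 10915 and 4692. In all, the window held 27 pooled summits, 15 of them in introns, and 24, 22 and 26 in the replicates' lists.

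**Figure D2:**
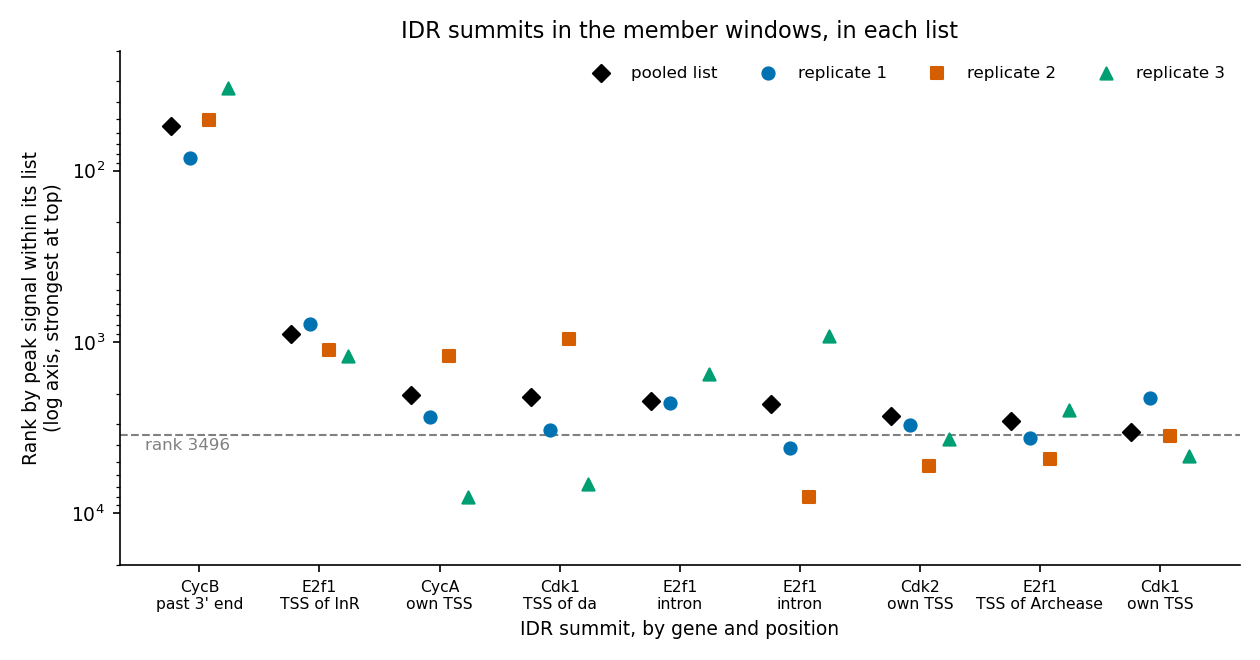
Rank by peak signal (log axis, strongest at top) of the 9 IDR summits in the pooled list and, where a summit lay within 150 bp, in each replicate's list. The dashed line marks rank 3496. The CycB peak ranks between 33 and 85 everywhere, while the weaker peaks fall on both sides of the line, and 1 intron peak of E2f1 has no point for replicate 2.

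The replicates differed in which of these peaks they ranked highly. All 3 top lists held 2 of the 9 IDR summits, those past the ends of CycB and E2f1. The peaks of CycA, the second E2f1 intron and the TSS of da were in 2 top lists, and the remaining 4 in 1. How all IDR summits divide between the top lists was not counted. Whether this division of the 9 is usual for the IDR list is therefore unknown. By their own TSSs, 5 genes had a summit in the top list of replicate 1 (CycA, CycB, CycD, Cdk1 and Cdk2), 1 in that of replicate 2 (CycA) and 1 in that of replicate 3 (CycE), a mean of 2.33 ± 2.31 (SD, n = 3). Over all protein-coding genes the 3 top lists gave 19.3%, 18.7% and 18.3%. Without replicate 1 the mean over the 10 genes was 1, so that replicate carries most of the TSS summits of these genes. The part of batch, depth or embryo stage in this was not tested. The IDR list was made from these replicates, so their agreement with it is not independent of the selection.

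Weaker summits were present at the TSSs of all 10 genes. In the pooled list, background included, 10 of 10 had a summit within 500 bp of an own TSS, against 54.2% of protein-coding genes. All 10 windows held a pooled summit, against 79.9%. In the replicates' whole lists the share of all genes was 54.4%, 50.8% and 52.6%, and the 10 genes had one in each. The count in all 3 lists at once was 10 of 10, against 37.4% of all genes. CycA, CycB3, CycD, Cdk1, Cdk2 and fzy have 1 annotated TSS, and among all genes with 1 TSS those shares were 46.5% in the pooled list and 29.1% in all 3 replicates. The pooled ranks of the 10 genes ran from 2039 to 10822 with a median of 4669, whereas the 7556 genes with any such summit had a median of 5666 and a range from 1 to 29976.

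The strongest TSS summit of each of the 10 genes lay between ranks 2039 and 10822 of the 30000 pooled peaks. At rank 1000, 0 of 10 had a TSS summit against 6.76% of all genes, a share from which 0 of 10 cannot be told apart. By rank 5000 there were 6, against 25%, and by rank 10000 there were 9, against 36.7%. A limit of 2 on the deposited −log10 q, chosen after the data were seen, gave 6 of 10 (CycA, CycB, CycE, Cdk1, Cdk2 and E2f1), against 25.4%. The share of all genes with a stronger TSS summit was 12.4% for CycA, 15.4% for Cdk2, 18.4% for Cdk1 and 20.4% for E2f1. It was 35% for CycD and 38% for stg.

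**Figure D3:**
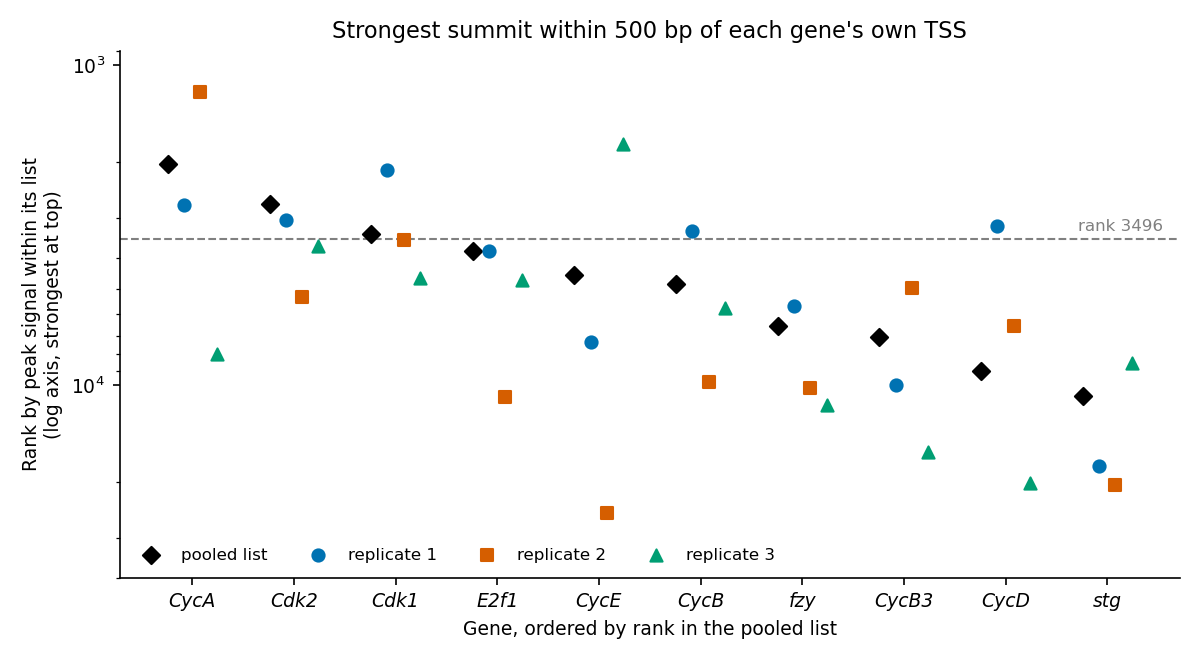
Rank by peak signal (log axis, strongest at top) of the strongest summit within 500 bp of each gene's own TSSs, in the pooled list and in the 3 replicates. The dashed line marks rank 3496, the end of the IDR list. All 10 genes have a point in every list, CycA, Cdk2 and Cdk1 have pooled ranks above the line, and the replicates of CycE spread most widely.

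**Figure D4:**
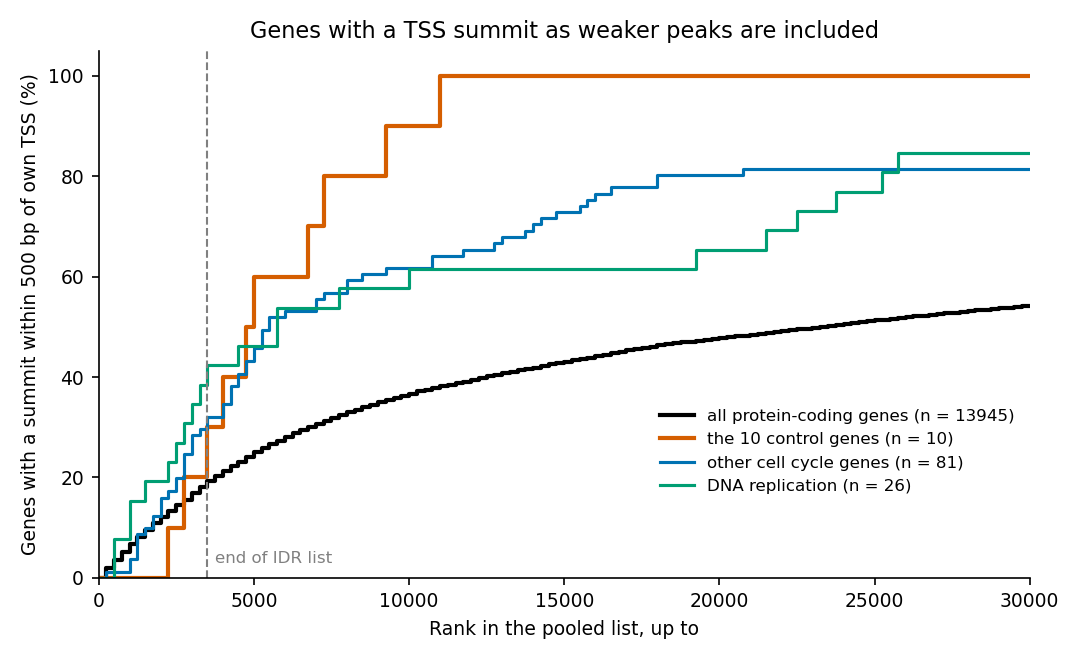
Share of genes (y axis, percent) with a summit within 500 bp of an own TSS as weaker peaks of the pooled list are included (x axis, rank). The 10 control genes start below all protein-coding genes at rank 1000 and reach 9 of 10 by rank 10000, where all genes are at 36.7%.

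Per length of sequence, the 10 windows held 0.705 IDR summits per 10 kb (9 in 128 kb), and the windows of all protein-coding genes together 0.315. Without E2f1 the value was 0.602. For the pooled list the densities were 4.94 and 2.59. The replicates gave 4.70, 4.15 and 5.49 for the 10 genes and 2.58, 2.56 and 2.58 for all genes. A window of a short gene is mostly TSS and flank, and the windows of the 10 genes ran from 5.52 kb for Cdk1 to 44.6 kb for E2f1. The part of window length in the difference was not tested. By place, the 63 pooled summits were 16 at an own TSS, 9 at the TSS of another gene, 13 in an own exon, 19 in an intron and 6 in the flank. The E2f1 window held 27 of the 63. Of the 19 in introns E2f1 held 15, CycE 2, and CycA and stg 1 each. The split by place was not counted over the windows of all genes. A pooled intron summit was at 4 of 10 genes, against 19% of all genes.

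The rest of the cell cycle machinery was read from 7 further lists, 81 genes in all, of which 26 had an IDR summit at an own TSS (32.1%, against 19.1% of all genes). The replicates' top lists gave 24.7 ± 3.79 (SD, n = 3). Of the other cyclins, Cdks and Cdk subunits 3 of 16 had one. These were Cdk12 (FBgn0037093, signal 136, rank 1354), a kinase of RNA polymerase, and Cdk7 (rank 2638) and CycH (rank 3112), partners in the kinase that activates Cdks. Of the genes that phosphorylate or inhibit Cdks or act with them, 5 of 10 had one, and 4 of these are named here. They were the mitotic kinase gene polo (FBgn0003124, signal 109, rank 1998), tws, which encodes a phosphatase subunit (rank 2285), trbl, whose product lowers String (rank 2611), and the Cdk inhibitor gene rux (rank 2921).

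Among the genes of the E2F network the strongest TSS peak was at Dp. In the E2F, Rb and dREAM list 3 of 10 had an IDR summit at a TSS. Dp (FBgn0011763), the obligate partner of E2f1 in DNA binding, had a summit 192 bp upstream with a signal of 302 and rank 240, and replicate ranks of 289, 222 and 296. Its summit was in all 3 top lists, and no other gene had a TSS within 500 bp of it. Rbf2, a retinoblastoma family gene, had rank 1172 and E2f2, the repressor of the E2F family, rank 2898, and both share the summit with another TSS.

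Genes that destroy cyclins and guard mitosis had TSS peaks at varied shares. Of the APC/C and its regulators 2 of 15 had one, Cdc16 (FBgn0025781, an APC/C subunit gene, signal 165, rank 934) and fzr, the fly Cdh1 and relative of fzy (signal 111, rank 1923). In the SCF list 3 of 7 had one, namely CSN5 (rank 2227), Cul1, the SCF scaffold (rank 2657), and slmb, its F-box subunit (rank 2993). For the spindle checkpoint, Aurora and separase the count was 5 of 16, led by the kinase gene aurA (FBgn0000147, signal 175, rank 833). Bub3 (rank 1051), Incenp (rank 1196) and BubR1 (rank 2725) followed. The DNA damage and replication checkpoint list had 5 of 7, with the kinase genes tefu (FBgn0045035, the fly ATM, signal 154, rank 1056), lok (rank 1504) and mei-41 (rank 1707), and p53 (rank 1765). Of these 4, tefu, lok and mei-41 share the summit with another TSS, those of Hsc70-4, barr and TH1.

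For DNA replication genes, many of which are known targets of E2f1, the count was 11 of 26 (42.3%), and 9.33 ± 1.53 in the top lists (SD, n = 3). The strongest were dpa (FBgn0015929, a replicative helicase subunit gene, signal 234, rank 454) and dup, the fly Cdt1 (rank 466). RnrS, for a ribonucleotide reductase subunit (rank 764), and Ctf4 (rank 955) followed. All 4 of these share their summit with the TSS of another gene. Of the genes named from the other lists, Cdk12, Cdk7, rux, Cdc16, CSN5, Cul1, slmb, aurA, Bub3 and Incenp also share their summit with the TSS of another gene, so those peaks cannot be assigned by position. The differences in share between the lists and the 10 control genes were not tested.

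**Figure D5:**
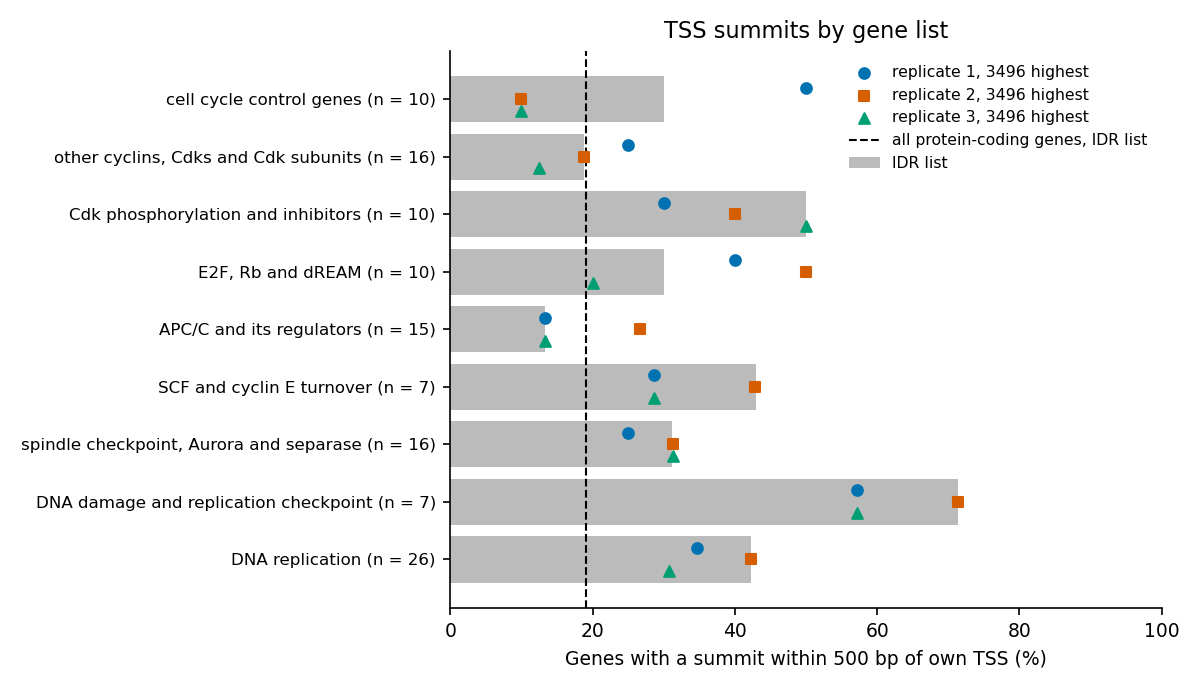
Share of genes (percent) with a summit within 500 bp of an own TSS, for the 10 cell cycle control genes and 8 other lists. Bars are the IDR list, points the 3496 highest peaks of each replicate, and the dashed line is the 19.1% of all protein-coding genes. The 10 control genes have the widest spread between replicates, from 1 to 5 genes. Among lists also of 10 genes, it is 2 to 5 for E2F, Rb and dREAM and 3 to 5 for Cdk phosphorylation and inhibitors.

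Elements in the sequence around the summits were counted by exact match on both strands, and 7 of the 9 IDR summits had at least 1 of the 12 searched within 150 bp, against 77.5% of all 3496. The DREF/BEAF sequence TATCGATA, bound by a factor known in flies for driving replication and growth genes, was within 150 bp of 2 of the 9 IDR summits, those at the TSSs of CycA and Cdk2. It was within 150 bp of 7.49% of all 3496 IDR summits. Its core CGATA was near 4 of the 9 (CycA, CycB, Cdk2 and the Cdk1 summit near da), against 43.8% of all. Around the best pooled TSS summit of each gene, TATCGATA was at 2 of 10 and its core at 6 of 10, against 8.91% and 47% of the best TSS summits of all genes.

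The element AAGTCA, recognised by receptors of the NR2E group, was within 150 bp of 2 of the 9 IDR summits, those of CycA and CycB, against 13.3% of all. Within 50 bp of the summit it was at 0 of 9, against 4.81%. The related AGGTCA, an element of many nuclear receptors, was found at 0 of 9, against 5.43%, and at 1 of the 10 best TSS summits, that of CycE, against 5.91%. The E2F sequences TTTCCCGC, and likewise TTTGGCGC and TTTCGCGC, were at 0 of 9 and 0 of 10, against at most 2.45% of the comparison summits. The CHR element TTTGAA was near 3 of the 9 (CycB, Cdk1 and the first E2f1 intron peak), against 39.2%. The CTCF core AGGTGGCGC was at the E2f1 summit near InR, against 1.12% of all IDR summits, and GAGAGAG at the first E2f1 intron peak, against 8.07%. The M1BP core GGTCACAC was at 0 of the 9, against 4.83%, and at 2 of the 10 best TSS summits, those of CycB and CycB3, against 7.55%. The E-box CACGTG was at 0 of 9, against 4.15%. A match is a string of letters, and its absence says only that these letters are not in the window.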

How the data were processed

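The deposited lists were made by the authors on dm6: per the deposited README texts, each replicate list came from its alignment and 1 further file, the pooled list from the 3 alignments and that file, and the IDR list from these lists. The README texts do not say what the further file holds. It also went into tracks they call control normalized, so it may be a control. For the aligner, peak caller and IDR threshold, the sources used here give nothing. The deposited signal per peak was used to rank peaks within a list. The deposited −log10 q (lowest value 3.00 in the IDR list and 0.0686 in the pooled list) was a limit in a planned and an unplanned alternative. Per the labels, chromatin was sonicated to 200 to 800 bp. The dm3 lists were not used here.

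Genes and TSSs (starts of all annotated transcripts) came from Ensembl release 115 on Release 6, without transposable elements, and sequence from the RefSeq Release 6 genome. Coordinates are 1-based. A replicate rank is that of the summit of highest signal within 150 bp, or within 500 bp of a TSS. Classes were assigned in the order own TSS, other TSS, own exon, intron, flank. The members and lists were chosen with earlier results of these data known. Of 118 list symbols 117 matched. The text names the 10 genes, up to 4 genes per further list with the highest TSS signal, and genes with a TSS or span at a member summit. Neighbours at other summits were added. Counting was checked on planted summits, with Python 3.11.15, numpy 2.4.6, pandas 2.3.3 and matplotlib 3.10.9. The sequences at the other 3 IDR summits are not reported here.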

Additional observations from a re-analysis of the deposited data

How the results depend on the processing

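Of 57 alternatives, 24 left a count within 1.5 times the reported one and 33 moved it further. No paired analysis was possible because there is 1 group. Leaving out a replicate kept the IDR summits found in the top lists of both others, which makes every such set smaller by construction. The IDR list itself was not made again. The 3 genes with an IDR summit at their own TSS then numbered 0 to 1, and the 5 with one in the window 2 to 4. The 9 summits numbered 2 to 4, the 1 gene with an intron summit 0 to 1, and the 26 other cell cycle genes 12 to 19. These counts were not made over all protein-coding genes or all IDR summits, so the drops cannot be compared with the usual one. The mean of 2.33 genes per top list was 1 without replicate 1 and at most 3, and the 2 summits in all 3 top lists became 2 to 4 when 2 lists had to agree.

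In the stronger part of the IDR list these counts were 0, 2, 2, 0 and 10, and in all pooled peaks, background included, 10, 10, 63, 4 and 66. Up to rank 1750, 11% of all protein-coding genes had a TSS summit. The −log10 q limit of 2, added after the data were seen, gave 6 genes at their own TSS, and in the planned count 16 of the 63 pooled window summits. With no flank, 2 genes and 3 IDR summits were left. The replicates' whole lists gave 10 genes at their own TSS, and 8 of the 9 IDR summits in all 3, again without a count over all IDR summits. With the 1000 highest peaks of each replicate no gene had a TSS summit (0). The share of all genes was not counted at that cut. In the pooled list up to rank 1000 it was 6.76%, a share from which 0 of 10 cannot be told apart. Matching within 50 bp left 1 summit in all 3 top lists, that past the end of CycB. With a window of 50 bp, 4 of the 9 IDR summits had any listed element, against 42.7% of all 3496. Other TSS distances (250 and 1000 bp) and the most upstream TSS alone moved no count past 1.5 times. Without read depth, a peak missing from a list cannot be told from one below its limit.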
